A study of Mus musculus with 6 samples.

Results

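The nuclear-encoded subunits of the mitochondrial respiratory chain and ATP synthase were examined in regenerating corneal epithelium of diabetic and control mice. Members were taken by gene symbol (Nduf genes of the a, b, c, s and v series, Sdha to Sdhd, the Uqcr genes with Cyc1, the Cox4 to Cox8 genes and the Atp5 genes), which gave 83 of the 14968 protein-coding genes of the deposited table. By complex these were 37 genes for complex I, 4 for complex II, 9 for complex III, 17 for complex IV and 16 for complex V. The choice used names only and no measured value. Among them 4 carry the name of a complex without being canonical subunits of it. They are Ndufa4, whose protein is found with complex IV, its paralog Ndufa4l2, the supercomplex factor Cox7a2l and the coupling factor gene Atp5s.

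Polyadenylated RNA came from 6 libraries, all of male C57BL/6 mice whose central corneal epithelium had been scraped off and whose limbus and part of the healing centre were collected the day after. The 3 control libraries came from untreated age-matched counterparts. The 3 diabetic libraries came from mice 16 weeks after repeated low-dose streptozotocin (STZ), a toxin that destroys pancreatic beta cells, and only mice with high blood glucose were used. Each library pooled the epithelium of several mice that were young adults on arrival, and replicates therefore differ as pools do, which is the only spread the p-values measure. No strain, allele or agent other than STZ separated the groups.

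The respiratory chain carries electrons from NADH (complex I) and succinate (complex II) through complex III to complex IV, which reduces oxygen, and complexes I, III and IV pump protons that drive ATP synthesis by complex V. Most subunits are encoded in the nucleus and imported, while a few hydrophobic ones are encoded by mitochondrial DNA, so that every complex except II needs products of both genomes. Transcription of the nuclear subunits is known to be under control of nuclear respiratory factor 1 (NRF1) and the ETS factor GABP. Corneal epithelium relies heavily on glycolysis, and its outer layers live on oxygen from the tear film.

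Promoter sequences of RefSeq (GRCm38.p6, 250 bases before to 50 after each start) were matched by symbol or synonym for 68 of the 83 members. They were searched on both strands for the NRF1 core GCATGCGC and the ETS core CCGGAAG. The NRF1 core was in 10 of the 68 (14.7%), against 5.96% of 9433 tested genes and 3.05% of all 27025 genes with a promoter in the table. The ETS core was in 16 (23.5%), against 20.5% of tested genes and 9.93% of all genes. Both were present in 5, namely Sdhb, Uqcr11, Cox6a1, Atp5k and Atp5l. A match is a string of letters and not a shown binding site. The stretches printed here, read 5′ to 3′ along the gene with the matches in capitals, belong to members whose levels are described further on. For Ndufa6 and Uqcrh every diabetic library lay below every control library, for Atp5g2 the diabetic mean was lower with overlap, for Sdhb the means were nearly level, and for Ndufa11 the diabetic mean was higher with overlap.
Ndufa6, chr15:82354347-82354394, minus strand, NRF1 core: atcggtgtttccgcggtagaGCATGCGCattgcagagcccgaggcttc
Uqcrh, chr4:116075054-116075100, minus strand, ETS core: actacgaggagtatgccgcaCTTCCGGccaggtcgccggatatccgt
Atp5g2, chr15:102671060-102671109, minus strand, NRF1 core overlapping on both strands: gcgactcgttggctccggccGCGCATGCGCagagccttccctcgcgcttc
Sdhb, chr4:140961197-140961303, plus strand, both cores: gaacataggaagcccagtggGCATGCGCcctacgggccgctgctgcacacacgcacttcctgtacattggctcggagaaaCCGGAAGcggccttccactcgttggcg
Ndufa11, chr17:56717682-56717731, plus strand, NRF1 core overlapping on both strands: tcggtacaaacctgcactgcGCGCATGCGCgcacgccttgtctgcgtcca
The 21 tested members with either core had a median log2 fold change (diabetic minus control) of -0.14, with a range from -0.32 to 0.09. The 45 tested members with a promoter in the table and no match had one of -0.18, with a range from -0.61 to 0.26. The ranges of both sets overlapped.

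Levels were deposited as FPKM, that is fragments scaled to transcript length and to the mapped total of a library. Such values are per length and can be set side by side between genes. A library's values summed to between 308757 (diabetic replicate 3) and 331926, and between 14000 and 14116 genes were above 0. FPKM keeps no counts, and sequencing depth is therefore not known. In diabetic replicate 3, 42.3% of all genes tested had their lowest value of the 6 libraries. Corneal epithelial identity was present in every library, with the summed FPKM of 7 corneal markers (Krt12, Krt5, Krt14 and others) at 14865 to 15707 in control and 14605 to 17140 in diabetic libraries. Within this sum Krt14 was lower in every diabetic library (log2 fold change -0.26). Krt12 was higher (0.52) in diabetic replicates 2 and 3, at 5402 and 5743 FPKM. In diabetic replicate 1 it was level with control replicate 2, both at 3746 FPKM. No gene of the corneal or other cell type marker lists passed the adjusted threshold in limma. Summed FPKM of 7 neutrophil markers was 337 to 655 in control and 619 to 970 in diabetic libraries, mostly S100a9 (means of 363 and 577 FPKM). For 6 lens markers the sum was 10.6 to 18.5 and 15.1 to 241, with Mip at 0 in 3 libraries, and for 6 macrophage markers 70.9 to 84.6 and 73.1 to 99.5. These ranges overlapped. Among the macrophage markers C1qa was lower in every diabetic library (-0.57), while Lyz2 was at 0.60 with overlap. For 5 erythrocyte markers the sum was 40.9 to 107 and 9.90 to 22.2, and for 5 stromal markers 342 to 364 and 218 to 331, lower in every diabetic library. Alas2 of the erythrocyte list went the other way (0.22, with overlap). The 3 vascular endothelial markers summed to 0.972 to 1.53 and 1.06 to 1.32. In bulk tissue, fewer cells of a type and less RNA per cell cannot be told apart. The part of these cell types in the results was not tested.

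In control epithelium the members spanned levels from 0 to 390 FPKM with a median of 66.5 FPKM. The most abundant was Cox6b1, a small subunit at the dimer interface of complex IV, with control values of 377, 388 and 406 FPKM and diabetic values of 378, 364 and 327 FPKM. Cox8a (control mean 297 FPKM), Ndufa4 (289), Cox7a2 (238), Uqcrb (221) and Uqcr10 (218) followed in order of control mean. Among these, Cox8a and Ndufa4 lay within each other's SD, and so did Uqcrb and Uqcr10. The 7 catalytic core genes of complex I, which encode its flavoprotein and iron-sulphur subunits, had a median control level of 27.1 FPKM and ranged from 10.01 FPKM (Ndufs1) to 88.4 FPKM (Ndufs8). By complex the median control level was 60.0 FPKM for complex I, 37.4 for complex II, 85.8 for complex III, 105 for complex IV and 85.8 for complex V. Summed over all members, FPKM was 7301 ± 375 in control and 6549 ± 606 in diabetic libraries (SD, n = 3), a difference of -10.3%. The sum was 7080, 7088 and 7734 FPKM in control replicates 1, 2 and 3. It was 7144, 6570 and 5932 FPKM in diabetic replicates 1, 2 and 3, so that diabetic replicate 1 lay within the control range and the other 2 below it.

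Diabetic and control libraries were compared to ask whether the message of the respiratory chain differs in epithelium that heals under diabetes. No member passed the test. The median log2 fold change was below 0 in each complex. In complex II it was within the spread between libraries (-0.09, SD 0.095). It was somewhat beyond 1 SD in complexes I (-0.16, SD 0.114), III (-0.15, SD 0.115) and V (-0.14, SD 0.116), and further in complex IV (-0.24, SD 0.116). With median-of-ratios scaling the medians were smaller in size, at -0.107 in complex I, -0.097 in III, -0.087 in V and -0.181 in IV. The SDs above are of values without that scaling, and a spread after scaling is not given here. Of the 83 members 80 passed a minimum mean of 0.5 FPKM in 1 or both groups and were tested on log2(FPKM + 1) with limma. The count past a Benjamini-Hochberg adjusted p of 0.05 was 0 of 80, where 0.0658% of all 12149 genes were called, and the smallest adjusted p of a member was 0.300 (Ndufa6). Before adjustment, limma gave p under 0.05 for 13 lower members (16.2%, all genes 6.91%) and 1 higher member (all genes 4.61%). With a 1.5-fold change required as well, 2 members were lower, Ndufa4l2 and Cox7a1 (all genes 1.26%), and 0 were higher (all genes 1.23%). For 17 members (21.2%) every diabetic library lay below every control library, where 10.9% of all genes did so, and for 1 member (background 6.68%) every diabetic library lay above. The fold change was negative for 74 of 80 members (92.5%), while 61% of all genes were negative. With median-of-ratios scaling 65 members (81.2%) and 49.8% of all genes were negative. The median log2 fold change was -0.17 for the members and -0.04 for all genes. For the 2150 other genes with a mean of at least 20 FPKM it was -0.07. These members share libraries and are not independent of each other, so the counts describe the list and do not test it.

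**Figure D1:**
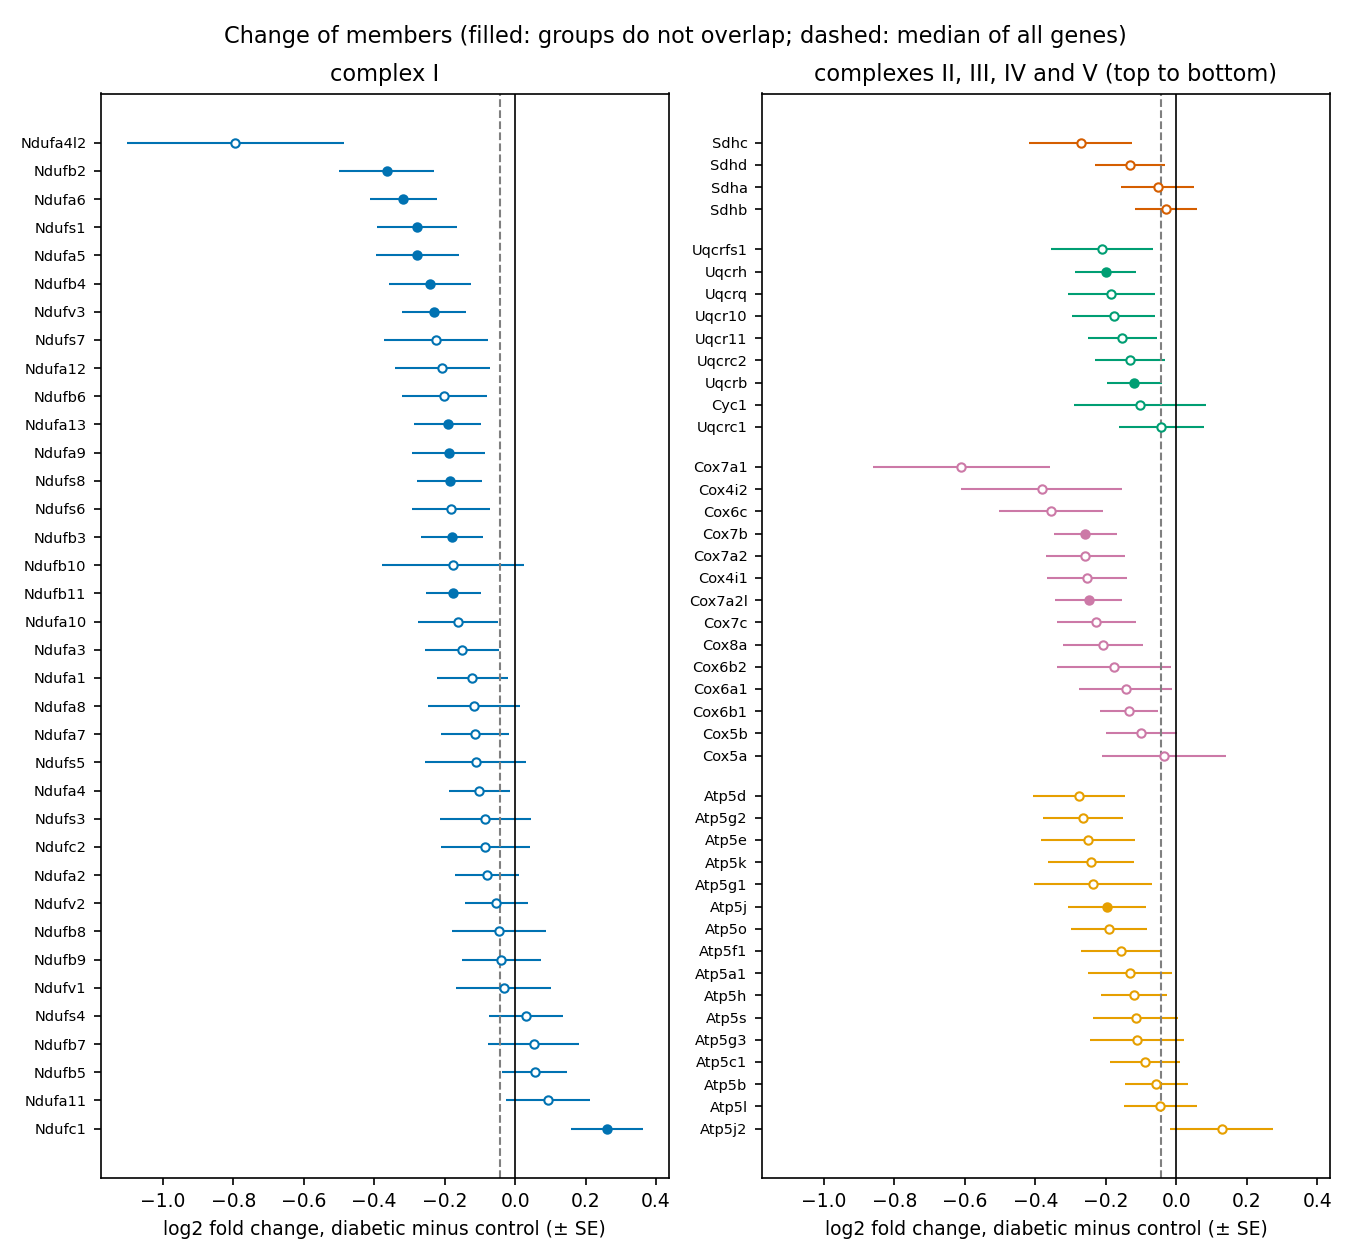
Log2 fold change (diabetic minus control, on log2(FPKM + 1)) with its standard error for the tested members apart from 1 that is not shown, complex I on the left and complexes II to V on the right. Filled points mark members whose groups did not overlap, and the dashed line is the median of all genes at -0.04; most points lie to its left.

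The libraries did not contribute evenly. Against the control mean, the median of the members was at -0.05, -0.03 and 0.10 on the log2 scale in control replicates 1, 2 and 3. It was at -0.02, -0.15 and -0.30 in diabetic replicates 1, 2 and 3. Control replicate 3 held the highest value of 52 members and diabetic replicate 3 the lowest value of 61 (76.2%). Diabetic replicate 1 lay below all control libraries for 22 members (27.5%, all genes 23.1%) and above all of them for 8 (all genes 29.6%). Diabetic replicate 2 did for 55 (68.8%, all genes 29.9%) and diabetic replicate 3 for 69 (86.2%, all genes 50.2%). In diabetic replicate 3 the median of all genes was itself at -0.13 and that of other genes with at least 20 FPKM at -0.18. Without diabetic replicate 3 the median of the members was -0.09 and 1 member was lower with an unadjusted p under 0.05 by limma. Without diabetic replicate 1 the median was -0.22 and 25 members were lower at that threshold. Lower without overlap were then 53, but a group with fewer libraries avoids overlap more readily, so this is not comparable with the full set. The share of all genes in this setting is not given here, so 53 is no result about the members. Without control replicate 3, the median was -0.12 and 3 were lower at that threshold. The count of 13 also fell to 4 without control replicate 1, to 3 without control replicate 2 and to 6 without diabetic replicate 2. The count over all genes moved as well. With p under 0.05 in either direction by limma it was 1399 of 12149 with all 6 libraries. Without control replicates 1, 2 and 3 it was 921 of 12117, 1022 of 12127 and 1390 of 12179. Without diabetic replicates 1, 2 and 3 it was 1823 of 12111, 1171 of 12160 and 991 of 12154.

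**Figure D2:**
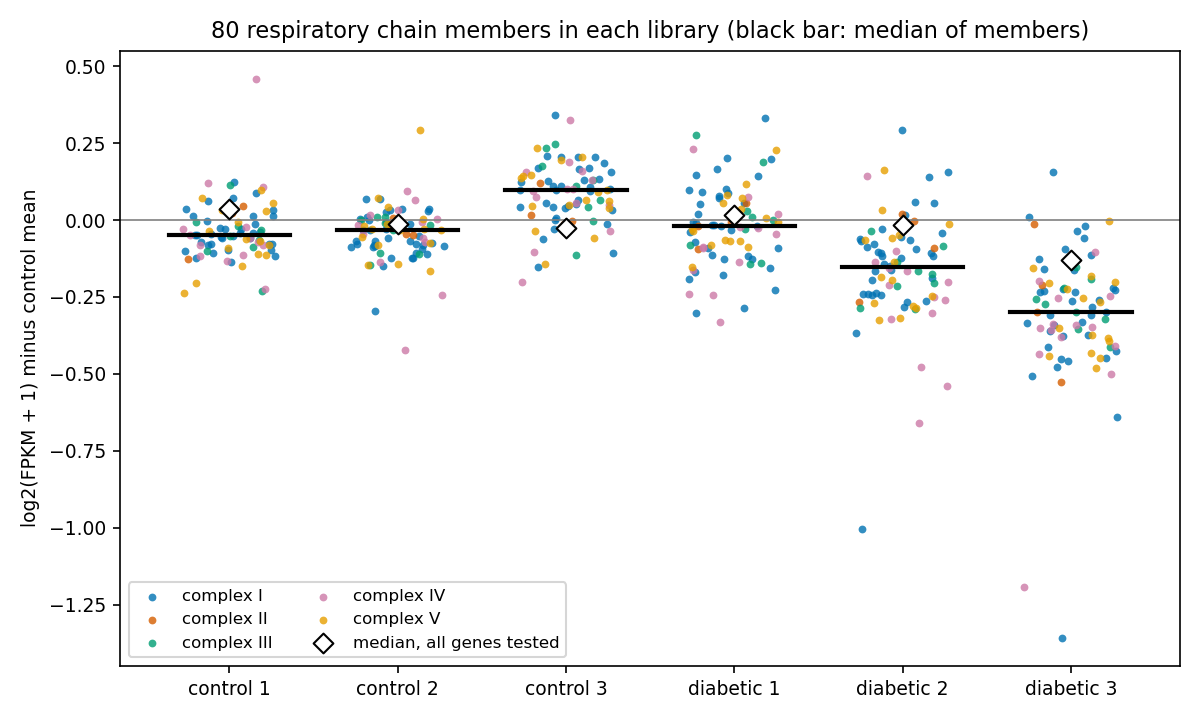
Level of each of the 80 tested members in each library, as log2(FPKM + 1) minus the mean of the control libraries, coloured by complex. Black bars are the medians of the members (-0.02, -0.15 and -0.30 in diabetic replicates 1, 2 and 3) and diamonds the medians of all genes tested.

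Complex I takes electrons from NADH and is the largest of the complexes. Of its 37 genes 32 had a negative fold change (61% of all genes), with a median log2 fold change of -0.16. Before adjustment 7 were lower (all genes 6.91%), Ndufa4l2 among them, and 1 was higher (all genes 4.61%) with p under 0.05 by limma. For 12 the diabetic libraries lay entirely below the control ones (all genes 10.9%). By role, the 7 catalytic core genes had a median of -0.19 and were all negative. The 9 accessory genes of the matrix arm had a median of -0.19 (8 negative) and the 19 of the membrane arm one of -0.12 (15 negative).

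Ndufa6 (ENSMUSG00000022450), chromosome 15, 82350139 to 82354291 on GRCm38 as all gene positions here, encodes an accessory subunit of the matrix arm. Its control values were 118, 108 and 125 FPKM and its diabetic values 95.6, 98.6 and 86.8 FPKM. All diabetic libraries lay below all control libraries, diabetic replicate 1 included, unlike most members. The means were 117 ± 8.33 and 93.7 ± 6.14 FPKM (SD, n = 3; log2 fold change -0.32, SE 0.10, limma adjusted p = 0.300). Ndufb2 (chromosome 6, 39592574 to 39603382), of the membrane arm, was at 9.95, 10.4 and 10.7 FPKM in control and 8.91, 8.44 and 6.26 FPKM in diabetic libraries (log2 fold change -0.36, limma adjusted p = 0.372). Its span overlaps Gm42420 on the same strand, so reads of both cannot be told apart here.

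Ndufc1 (chromosome 3, 51404677 to 51408988), a small membrane-arm subunit, was the exception in the upward direction. It was at 33.6, 30.7 and 35.7 FPKM in control libraries. In diabetic libraries it was at 42.2, 41.0 and 37.2 FPKM, each above the highest control value. The difference was 20.4% of the control mean (log2 fold change 0.26, SE 0.10, limma adjusted p = 0.396), and its sign was positive under all 17 alternatives, with values from 0.21 to 0.33. The partner subunit Ndufc2 had a log2 fold change of -0.08. The other members with a positive value were Ndufa11 (0.09), Ndufb5 (0.06), Ndufb7 (0.05) and Ndufs4 (0.03) of complex I and Atp5j2 (0.13) of complex V, and for each of them the groups overlapped.

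Further complex I genes, chosen after their values were seen, belong to the electron path or lie beside it. Ndufs1, one of the subunits that carry iron-sulphur clusters of the electron path, was at 10.6, 10.3 and 9.20 FPKM in control and 7.92, 9.09 and 7.26 FPKM in diabetic libraries. The groups did not overlap, and the log2 fold change was -0.28 (limma adjusted p = 0.417). Ndufv1, which binds the flavin and NADH, showed no such difference (22.7 ± 1.80 against 22.3 ± 3.65 FPKM, SD, n = 3; log2 fold change -0.03, SE 0.13). Ndufv3, an accessory subunit beside it, was at 33.2, 32.2 and 31.7 FPKM in control and at 27.5, 28.8 and 26.1 FPKM in diabetic libraries (log2 fold change -0.23, limma adjusted p = 0.396).

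Ndufa4l2, the paralog of Ndufa4 that is induced by hypoxia, had the largest difference of all members tested. It was at 8.44, 7.82 and 6.80 FPKM in control libraries (chromosome 10, 127514967 to 127517154). In diabetic replicates 1, 2 and 3 it was at 7.56, 3.31 and 2.38 FPKM. The first of these lay within the control range and the other 2 were less than any control value. The log2 fold change was -0.79 (SE 0.31, limma adjusted p = 0.396) and -0.51 without diabetic replicate 3. It was -1.18 without diabetic replicate 1, the diabetic library within the control range, where the limma adjusted p was 0.0375. In that setting 66 of 12111 genes passed the adjusted threshold, against 8 of 12149 with all 6 libraries. Ndufa4 itself, far more abundant per length, was at 278, 302 and 286 FPKM in control and 287, 277 and 245 FPKM in diabetic libraries (log2 fold change -0.10). Ndufa4l2 is also known as a gene of pericytes, the contractile cells of small vessels. The sum of 7 pericyte and smooth muscle markers was 12.8 to 13.5 FPKM in control and 13.04 to 14.41 FPKM in diabetic libraries. Most of it was Pdgfrb, Notch3 and Acta2 (control means of 4.24, 4.61 and 3.56 FPKM). Rgs5 (no more than 0.205 FPKM), Abcc9 (0.0745) and Kcnj8 (0.0761) fell short of the expression minimum. The sum is therefore no measure of pericyte content. Among 12 listed hypoxia-response genes 1 (Ndrg1) passed the adjusted threshold in limma (all genes 0.0658%). Before adjustment 10 of them were lower by limma (all genes 6.91%) and 0 higher (all genes 4.61%). The 12 genes had a median of -0.74 on the log2 scale, and Pfkfb3 went the other way (0.37, with overlap). This list was chosen with earlier results of these data known. The part of hypoxia in the Ndufa4l2 values was not tested. Ndufa4l2 overlaps Shmt2 on the opposite strand, and whether counting used the strand of the kit is not given in the sources used here.

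**Figure D3:**
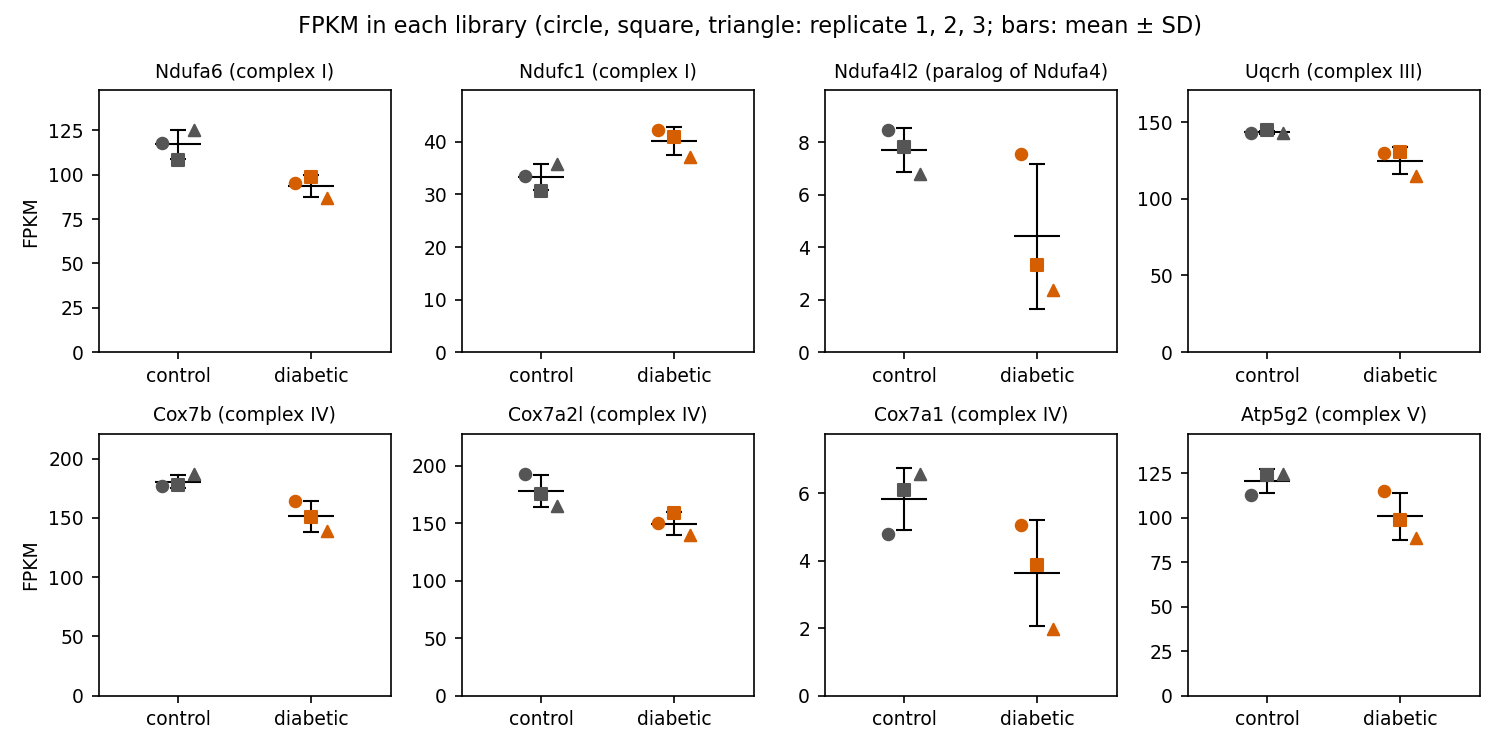
FPKM of 8 members in the 3 control and 3 diabetic libraries, each panel from 0, with marks for replicates 1, 2 and 3 and bars for mean ± SD (n = 3). Ndufa6, Uqcrh, Cox7b and Cox7a2l are lower and Ndufc1 is higher in every diabetic library, whereas for Ndufa4l2, Cox7a1 and Atp5g2 diabetic replicate 1 falls among the control libraries.

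Complex II, the succinate dehydrogenase that also serves the citric acid cycle, is the complex without a mitochondrially encoded subunit. It had the smallest median of the complexes, -0.09, and the groups overlapped for all 4 genes. Sdha, the flavoprotein that oxidizes succinate, was at 31.4, 30.6 and 30.6 FPKM in control and 32.1, 30.8 and 26.5 FPKM in diabetic libraries (log2 fold change -0.05, SE 0.10). Sdhb, the iron-sulphur subunit, was at 45.02, 42.4 and 44.5 FPKM in control and 41.2, 44.6 and 43.6 FPKM in diabetic libraries (-0.03, SE 0.09). Both signs were positive under median-of-ratios scaling, and that of Sdhb also as TPM. The membrane anchors Sdhc and Sdhd had log2 fold changes of -0.27 (limma adjusted p = 0.525) and -0.13 (limma adjusted p = 0.640). Sdhc was at 12.6, 13.9 and 15.1 FPKM in control and 13.6, 11.3 and 9.31 FPKM in diabetic libraries, and Sdhd at 121, 114 and 117 against 117, 110 and 95.2 FPKM.

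Complex III passes electrons from ubiquinol to cytochrome c. All 9 of its genes were negative (61% of all genes), with a median of -0.15 and a narrow range from -0.21 to -0.04. Uqcrh, the acidic hinge protein at the cytochrome c docking site, was at 143, 145 and 143 FPKM in control libraries. In diabetic libraries it was at 130, 130 and 115 FPKM, without overlap (log2 fold change -0.20, SE 0.09, limma adjusted p = 0.434; chromosome 4, 116066965 to 116075071). Uqcrb, a small subunit near the quinone site, was at 216, 216 and 231 FPKM in control and 208, 208 and 193 FPKM in diabetic libraries, also without overlap (log2 fold change -0.12). Uqcr10 and Uqcr11, further small subunits, had values of -0.18 and -0.15 with overlap. The catalytic genes overlapped as well. Uqcrfs1, the Rieske iron-sulphur protein, was at 65.1, 62.3 and 81.4 FPKM in control and 69.1, 59.4 and 51.7 FPKM in diabetic libraries (-0.21, limma adjusted p = 0.611). Cyc1, which encodes cytochrome c1, was at 53.9, 62.7 and 75.6 FPKM against 77.0, 51.9 and 51.4 FPKM (-0.10, SE 0.19). Diabetic replicate 1 thus held the highest Cyc1 value and the other diabetic libraries the lowest ones. Without control replicate 3 the Cyc1 value was 0.02.

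Complex IV, cytochrome c oxidase, had the lowest median of the 5 complexes at -0.24, with all 14 tested genes negative (61% of all genes). Before adjustment 4 were lower by limma (all genes 6.91%), the non-canonical Cox7a2l among them. The 10 isoforms that most tissues use had a median of -0.22, with 2 lower before adjustment by limma. Cox7b (chromosome X, 106015700 to 106022450), one of these, was at 177, 178 and 187 FPKM in control and 164, 151 and 139 FPKM in diabetic libraries. The groups did not overlap, and the log2 fold change was -0.26 (SE 0.09, limma adjusted p = 0.346). Cox6c, a small transmembrane subunit, was at 39.4, 41.8 and 44.0 FPKM in control and 40.9, 28.4 and 29.2 FPKM in diabetic libraries (log2 fold change -0.36, SE 0.15, limma adjusted p = 0.422), with diabetic replicate 1 among the controls. Cox4i1, an early building block of the enzyme, was at 118, 109 and 133 FPKM against 112, 95.6 and 93.5 FPKM (-0.25, limma adjusted p = 0.447). Cox8a (-0.21), Cox6a1 (-0.14) and Cox6b1 (-0.13) followed with overlap. Cox5a, which binds a thyroid hormone metabolite, was nearly level (-0.03, SE 0.18), with control values from 38.4 to 57.4 FPKM and diabetic values from 39.6 to 53.7 FPKM.

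Complex IV subunits with tissue-specific isoforms were carried almost wholly by the common form. Cox4i2, the isoform of lung and hypoxic tissue, was at 2.36, 0.824 and 1.38 FPKM in control and 1.07, 0.548 and 1.06 FPKM in diabetic libraries, beside 93.5 to 133 FPKM of Cox4i1. Its log2 fold change was -0.38 (SE 0.23, limma adjusted p = 0.563), and leaving out control replicate 1, where it was highest, gave -0.15. The striated muscle isoform Cox7a1 was at 4.802, 6.11 and 6.57 FPKM in control and 5.06, 3.88 and 1.97 FPKM in diabetic libraries, where diabetic replicate 1 overlapped the controls. Its log2 fold change was -0.61 (SE 0.25, limma adjusted p = 0.421), or -0.32 without diabetic replicate 3 and -0.83 without diabetic replicate 1. The common form Cox7a2 was at 217, 244 and 255 FPKM against 223, 200 and 176 FPKM (-0.26, limma adjusted p = 0.438). Cox7a2l, the family member that links complexes III and IV, was at 193, 176 and 165 FPKM in control and 150, 159 and 139 FPKM in diabetic libraries, without overlap (-0.25, SE 0.09, limma adjusted p = 0.387). The muscle isoforms Cox6a2 and Cox8b and the testis isoform Cox7b2 fell short of the expression minimum. Cox6a2 was listed at 0 in 4 libraries and at no more than 0.239 FPKM in the others, Cox8b at no more than 0.265 FPKM, and Cox7b2 at 0 in all 6. The testis isoform Cox6b2 was at 0.792, 0.774 and 0.444 FPKM in control and 0.320, 0.835 and 0.312 FPKM in diabetic libraries, with overlap. Of the striated muscle markers 4 were measured, and they summed to 0.949 to 1.72 FPKM in control and 0.610 to 2.37 FPKM in diabetic libraries.

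Complex V makes ATP from the proton gradient. Of its 16 genes 15 were negative (61% of all genes), with a median of -0.14, and 1 was lower before adjustment by limma, a share near the 6.91% of all genes. The genes of the F1 head, which holds the catalytic sites, had values from -0.28 to -0.06. Atp5b, the catalytic beta subunit, was at 158, 158 and 169 FPKM in control and 166, 159 and 142 FPKM in diabetic libraries (-0.06, SE 0.09), while the central stalk genes Atp5d (-0.28, limma adjusted p = 0.481) and Atp5e (-0.25, limma adjusted p = 0.523) were further down. Atp5d was at 69.8, 77.6 and 85.8 FPKM against 73.8, 63.6 and 55.2 FPKM, with overlap.

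The c-ring of complex V, the rotor in the membrane, is built from 1 mature protein that 3 genes encode. Atp5g2 (chromosome 15, 102662864 to 102672352) was the most abundant, at 113, 124 and 125 FPKM in control and 115, 98.8 and 88.5 FPKM in diabetic libraries (log2 fold change -0.26, SE 0.11, limma adjusted p = 0.434). Atp5g3 was at 86.4, 88.3 and 107 FPKM against 102, 81.6 and 78.2 FPKM (-0.11), and Atp5g1, the least abundant, at 14.5, 16.4 and 19.95 FPKM against 17.5, 13.3 and 12.04 FPKM (-0.24). In all 3 genes diabetic replicate 1 lay within the control range and diabetic replicates 2 and 3 below it. Atp5k, a small membrane subunit whose control mean was level with that of Atp5h (both 176 FPKM), was at 168, 159 and 203 FPKM against 165, 148 and 134 FPKM (-0.24, limma adjusted p = 0.503). Atp5j of the peripheral stalk was the complex V gene without overlap, at 40.9, 39.4 and 42.9 FPKM in control and 39.2, 37.3 and 31.2 FPKM in diabetic libraries (-0.20, limma adjusted p = 0.546).

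Other genes of the pathway gave the following values. The 13 mitochondrially encoded subunits had a median log2 fold change of -0.37. Of these 12 lay lower with a limma p under 0.05 (all genes 6.91%), and mt-Nd6 was nearly level (0.02). The count past the adjusted threshold was 0 (smallest limma adjusted p 0.0948, mt-Nd3). The library medians of the 13 genes were 0.09, 0.07 and -0.17 in control replicates 1, 2 and 3 and -0.36, -0.31 and -0.43 in diabetic replicates 1, 2 and 3. Control replicate 3 was thus the lowest control library for the mitochondrial genes and the highest for the nuclear ones, and diabetic replicate 1 was low for the mitochondrial genes alone. The 50 assembly factors had a median of -0.08, with 4 of 50 lower at that threshold, near the 6.91% of all genes, 0 higher and 0 past adjustment. Of 11 tested regulators of mitochondrial biogenesis 0 were lower or higher at that threshold. Nrf1, Gabpa and Tfam, which encode regulators of these genes, were among them. Pprc1, a coactivator of the PGC-1 family, had a log2 fold change of 0.27 (limma adjusted p = 0.454) and was higher in every diabetic library. The partners Cycs (cytochrome c), Ndufab1, Usmg5 and Atpif1, which the symbol rule does not take, had values from -0.27 to -0.07.

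Scaling and left-out libraries moved the size of these medians. Complex IV had the lowest and complex II the highest median with all 6 libraries and in each of the other settings plotted, while the order of complexes I, III and V varied. Under median-of-ratios scaling, which brings the median of all genes to 0.00086, the medians were -0.11 for all members, -0.18 for complex IV and -0.04 for complex II. Rescaled to TPM, where each library sums to the same total, they were -0.13, -0.21 and -0.05.

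**Figure D4:**
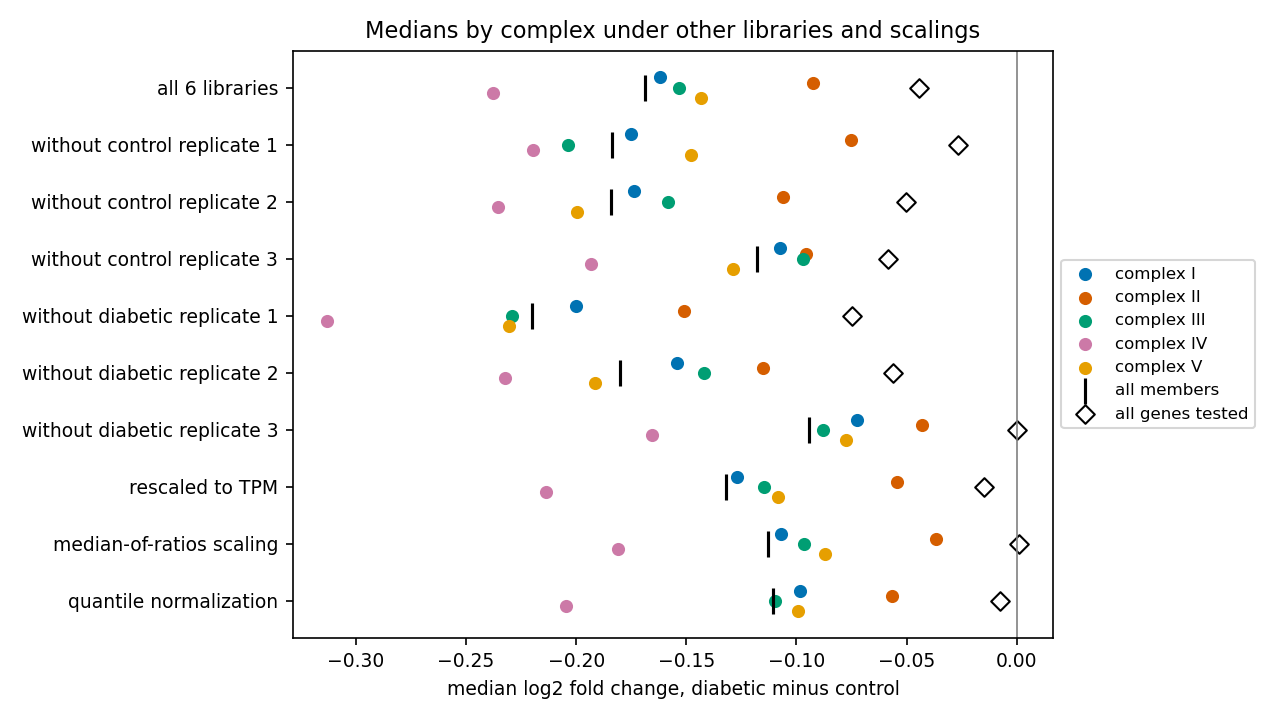
Median log2 fold change of each complex (coloured points), of all members (black bar) and of all genes tested (diamond) with all 6 libraries, without each library in turn and under 3 other scalings. The members lie left of all genes in each row, closest to 0 (-0.09) without diabetic replicate 3.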

How the data were processed

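The authors sequenced stranded polyA libraries (KAPA kit) on a NovaSeq instrument. Per the labels and the submitters' processing notes, reads passed FastQC and cutadapt, HISAT2 on GRCm38 and StringTie, with versions not given in the sources used here. FPKM values were computed by the authors and deposited for 14968 protein-coding genes, of which 374 were at 0 in all libraries and 21 repeated a symbol (the gene with the highest mean kept it). Depth is unknown, since FPKM keeps no counts.

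Genes with a mean of at least 0.5 FPKM in 1 or both groups (12149) were tested with limma 3.58.1 (R 4.3.3) on log2(FPKM + 1), with a mean-variance trend, two-sided, adjusted by Benjamini-Hochberg over all of them at 0.05. Degrees of freedom were 4 (residual) and 3.65 (prior). Fold changes on this scale understate those of low genes. No single value was permuted, since so few libraries cannot reach the threshold that way. A second rule, from the study, took a p under 0.05 before adjustment and a 1.5-fold change.

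Of the 83 members all were in GENCODE M21 and 70 had identical coordinates there. Genes on the same strand overlapped 12 members and genes on the opposite strand 29, and processed pseudogenes or close paralogs may share reads with others. Named with values are the 4 members with the smallest p and the most abundant member of each complex, complex II, the catalytic complex III genes and the isoform families; others were picked with their values in view. Counts include 1 member that is not reported here by name. Members, lists and alternatives were chosen with earlier results of these data known. Alternatives were other pseudocounts (0.1, 0.5), no filter or a minimum of 5 FPKM, TPM, median-of-ratios and quantile scaling, library weights, robust hyperparameters, no trend, a replicate block and leaving out each library. Groups and numbers came from sample titles. The study calls its screen one of paired samples without saying how pairs were formed, and equal numbers were not taken as pairs here.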

Additional observations from a re-analysis of the deposited data

How the results depend on the processing

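No member passed an adjusted p of 0.05 in limma with all 6 libraries or under 16 of 17 other settings. Without diabetic replicate 1 there was 1 (Ndufa4l2), where 66 of 12111 genes passed, so leaving out a library gave 0 to 1. The count lower at an unadjusted p under 0.05 (13) was 8 with median-of-ratios scaling and 1 to 25 without a library, and the count higher (1) was 0 to 1. Past the thresholds of the study were 2 members (Ndufa4l2 and Cox7a1), which became 1 with no filter, median-of-ratios scaling, quantile normalization, library weights or without the 4 genes that are not canonical subunits, 0 with robust hyperparameters and 0 to 2 without a library. Lower without overlap were 17, or 12 with median-of-ratios scaling, 23 with quantile normalization and 17 to 53 without a library. Leaving out a library can remove an overlap but not add one, so counts without overlap could only stay or rise that way. That holds for all genes too, whose share in those settings is not given here. The count higher without overlap (1) was 2 as TPM, 3 with quantile normalization and 1 to 3 without a library. With the replicate number as a block 4 members were lower and 0 higher at an unadjusted p under 0.05, and 1 passed the thresholds of the study; deviations of same-numbered libraries correlated at -0.20, 0.06 and -0.09 across genes, so the numbers were not taken to pair the pools. The median of all genes was 0.00086 with median-of-ratios scaling, and -0.0746 to 0.00026 without a library. Sdhb was at 0.0102 as TPM, 0.0274 with median-of-ratios scaling, 0.0246 with quantile normalization, 0.0114 with library weights and -0.0534 to 0.0037 without a library, Sdha at 0.0026 with median-of-ratios scaling and -0.107 to 0.0277 without a library, and Cyc1 at -0.292 to 0.0211 without a library. The cause of these shifts was not tested. Of 559 values under other settings for the 33 named members, 550 kept their sign and their side of the threshold. Removing the 4 genes was added after the files were seen. With 3 pools a group and a median standard error of 0.12 on the log2 scale, differences as small as those of most members were not detectable here.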
